A study of Arabidopsis thaliana with 15 samples.

Results

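Roots of a triple mutant of Arabidopsis thaliana, grf1/grf2/grf3, were set against roots of the wild-type ecotype WS, with 3 arrays each, 6 of the 15 arrays of the series. The arrays were chosen by the genotype in their titles. The mutant carries mutations in GRF1, GRF2 and GRF3, and its ecotype is labelled as both Col-0 and WS, so its background is not given as pure WS. The labels name neither the mutant alleles nor the number of lines. WS is labelled wild type. The other 9 arrays entered the fit for its estimate of the spread: 3 of wild-type Col-0, 3 of P35S:rGRF1 (labelled Col-0) and 3 of P35S:rGRF3 (labelled WS), lines that express a miR396-resistant GRF1 or GRF3 from the viral 35S promoter. All plants were 2 weeks old and were grown on modified Knop's medium at 23 °C with 16 h of light and 8 h of dark.

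Growth-regulating factors are plant transcription factors that work with GIF co-activators and are best known for promoting cell proliferation in leaves and meristems. The microRNA miR396 cleaves the transcripts of most of them, and the balance between the microRNA and its targets is known to matter for root growth and for the feeding sites that cyst nematodes induce in roots. The series is about root genes under the control of GRF1 and GRF3, and the mutant addresses the loss of these factors. The annotation names no probe set for GRF1, GRF2 or GRF3, so the loss of the factors was not checked here. In whole roots, fewer cells of a type and less RNA per cell cannot be told apart.

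The values are signals on a log2 scale, so a difference of 1 is a doubling, and each difference is the triple mutant minus WS. The median array signal was 7.69 to 7.71 in the mutant and 7.68 to 7.73 in WS. RNA added at hybridization gave 10.72 to 10.81 in the mutant, 10.85 to 11.20 in WS and 9.68 to 10.33 on the other 9 arrays, which places mutant and WS in one array set and apart from Col-0. Within that set the mutant arrays all lay below the WS arrays, and the 25S ribosomal RNA probe signal was also lower, at 10.81, 9.77 and 10.24 in the mutant against 11.42, 11.69 and 11.58 in WS. Whether the replicates came from separate cultures is not stated, so each p-value reflects the spread among these arrays alone, and their number limits the precision.

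At an adjusted p under 0.05 (limma, Benjamini-Hochberg over all probe sets), 1727 of 22746 probe sets differed, which is 7.59% of those tested, and 928 (4.08%) were higher and 799 (3.51%) lower in the mutant. Of these, 608 differed at least 2-fold and 178 at least 4-fold. The count was 1013 with the hybridization control signal as a covariate, 977 without WS replicate 3, 1050 without triple mutant replicate 2 and 1064 without WS replicate 1. Taking the brightest probe set of each gene left 13355 genes, of which 842 (6.30%) differed, 462 higher (3.46%) and 380 lower (2.85%). The median difference over these genes was -0.01. Only 148 of the 842 have a name beyond their locus number in the tables used, and the account by function below rests on those.

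The largest increases included a calcium sensor, nitrate carriers and an expansin-like protein. Of the 12 genes with the largest increases, 4 are named. CML37, a calmodulin-like calcium-binding protein, had 6.34, 7.02 and 7.33 in the triple mutant, against 1.35, 4.55 and 3.51 in WS. Its WS signals were near the bottom of the scale, and the groups did not overlap, which the choice of genes required. The difference was 3.76 ± 0.65 (SE; limma, adjusted p = 0.0021). The gene for NRT2.5, which carries nitrate at low external supply and is known to be induced when nitrogen runs short, had 10.74, 10.46 and 10.91 in the mutant and 6.54, 7.96 and 6.89 in WS. All mutant arrays stood well above WS, by 3.57 ± 0.43 (SE, adjusted p = 0.00017). NPF6.4 (AT3G21670), of the NRT1/PTR family of nitrate and peptide carriers, had 10.12, 10.22 and 10.12 in the mutant against 7.06, 7.23 and 6.69 in WS. The mutant arrays were nearly alike and the difference was 3.16 ± 0.34 (SE, adjusted p = 7.3e-05). EXLB1, an expansin-like B protein, had 10.20, 10.62 and 10.64 in the mutant and 7.97, 8.69 and 7.86 in WS, a gap of 2.31 ± 0.34 (SE, adjusted p = 0.00075).

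The other 8 of the 12 have no name in the tables. AT5G38710 had 9.87, 9.98 and 10.26 in the mutant and 7.62, 7.41 and 8.06 in WS, a difference of 2.34 and, with an adjusted p of 1e-05 (limma), the smallest p of the 12. AT2G41380 gave 10.16, 10.15 and 10.02 in the mutant against 7.68, 7.69 and 7.35 in WS. In both genes the gap between the groups was wider than the range within either. The remaining 6 were AT3G28510 (2.74), AT3G10930 (2.61), AT1G23200 (2.46), AT4G27657 (2.2), AT4G29780 (2.16) and AT2G34610 (2.00), as log2 differences. The calls of AT4G27657 and AT4G29780 were lost without any one of the 6 arrays, with adjusted p up to 0.18 without WS replicate 1 and up to 0.16 without triple mutant replicate 3.

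Among the 12 largest decreases, 1 gene is named. BCAT4, a branched-chain aminotransferase that starts the chain elongation of methionine in glucosinolate synthesis, had 5.86, 7.29 and 6.81 in the triple mutant, against 10.30, 9.87 and 10.25 in WS. No mutant array came within 2 log2 units of a WS array, and the difference was -3.49 ± 0.54 (SE; limma, adjusted p = 0.0011). AT5G10210 had 6.90, 6.99 and 7.17 in the mutant and 10.64, 10.94 and 10.93 in WS, the largest decrease of the 12 (-3.82 ± 0.59, SE). AT4G39675 had 7.37, 7.12 and 6.79 in the mutant and 10.88, 10.93 and 10.73 in WS (-3.76 ± 0.55, SE). Both separated the 2 groups completely, which the choice of genes required. AT3G25790 had 5.67, 7.08 and 6.36 in the mutant and 9.91, 9.78 and 10.07 in WS (-3.55), and AT1G49500 had 7.73, 7.77 and 7.73 against 11.56, 10.99 and 11.05 in WS (-3.46). The remaining 7 fell by 2.15 to 2.64 and are AT1G36640, AT2G28780, AT5G62720, AT1G33055, AT5G59080, AT5G48430 and AT5G01740. AT1G36640 had the smallest adjusted p of these, 2e-06. The call of AT5G59080 was lost when single arrays were left out, with an adjusted p of up to 0.087 without triple mutant replicate 2.

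**Figure D1:**
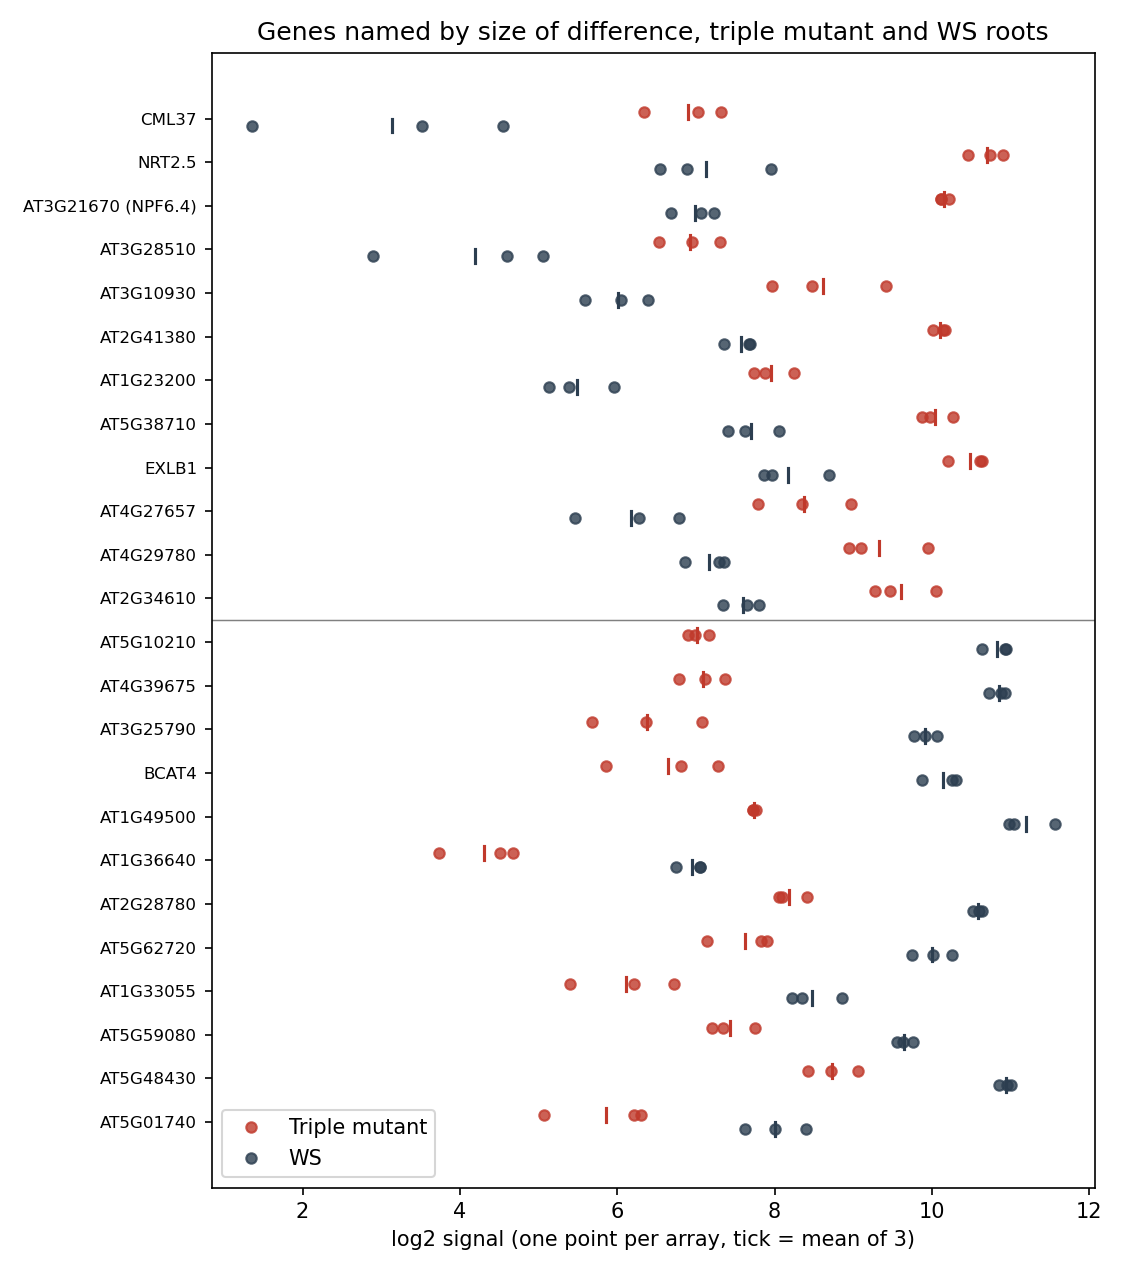
Log2 signal on each of the 3 triple mutant arrays (red, upper row of each gene) and 3 WS arrays (dark, lower row) for the 12 genes with the largest increases (top) and the 12 with the largest decreases (bottom), with a tick at each mean. The groups overlap in none of the 24 genes, since the choice of genes required this, and CML37 and AT3G28510 have the widest spread among the WS arrays.

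The same 24 genes were read in Col-0, whose arrays belong to the other array set. In 11 of the 12 increased genes every WS array lay below every Col-0 array, as in 18.4% of all genes, and in 9 the range of the mutant overlapped that of Col-0. In 2 of the 12 the mutant arrays all lay above the Col-0 arrays, as in 23.4% of all genes. Among the 12 decreased genes the mutant arrays all lay below the Col-0 arrays in 7, against 17.0% of all genes, and the ranges of mutant and Col-0 overlapped in 5. The WS arrays all lay above the Col-0 arrays in 5 of these 12, and in 3333 of all 13355 genes, or 25%. The 24 genes were chosen for their difference from WS, and these counts were not tested. Over all called genes, the range of the mutant overlapped that of Col-0 in 190 of the 462 higher genes (41.1%) and 158 of the 380 lower ones (41.6%), against 59.6% of all genes tested. Since the mutant is labelled with both ecotypes, loss of the factors and Col-0 background cannot be told apart at a single gene from these arrays.

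In P35S:rGRF1, the line that overexpresses GRF1, the mean lay below the Col-0 mean for each of the 12 genes that were higher in the mutant, and for 9 of them the arrays did not overlap, against 11.6% of all genes with P35S:rGRF1 wholly below Col-0. Of the 12 genes that were lower in the mutant, the P35S:rGRF1 mean lay above that of Col-0 for 11, with no overlap for 8, against 13.4% of all genes with P35S:rGRF1 wholly above Col-0. NRT2.5 averaged 4.91 ± 0.39 in P35S:rGRF1 and 10.5 ± 1.1 in Col-0 (SD, n = 3 each). BCAT4 averaged 12 in P35S:rGRF1 and 9.8 in Col-0. In P35S:rGRF3 the mean lay below Col-0 for 9 of the higher genes and above it for 5 of the lower ones. No share over all genes was taken for the counts of means in either line. Col-0 is the reference for every count here, and WS also lay wholly below it in 11 of the 12 higher genes. These counts were not tested, so they do not show opposite regulation by GRF1.

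Nitrate carriers were the transport group with the clearest increases. Of 10 genes matched by symbol to the NRT1/PTR and NRT2 families, 3 rose (30%, against 3.46% of all genes) and none fell. The median difference was 0.45, and the list does not cover the whole families. Beside NRT2.5 and NPF6.4, the third was NPF3.1 (AT1G68570), a carrier of the NRT1/PTR family, with 9.14, 9.09 and 8.95 in the mutant and 7.89, 8.33 and 8.20 in WS. It rose by 0.92 ± 0.19 (SE; limma, adjusted p = 0.0071). All 3 kept their calls when any single array was left out. The other 7 were not called and differed by -0.51 to 0.61.

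Sugar transporters moved in both directions. SWEET proteins let sugars pass through membranes along their gradient. Of 16 listed, 2 rose and 2 fell (25% called, against 6.30% of all genes). SWEET2, which resides in the vacuolar membrane of root cells, had 8.02, 7.82 and 8.22 in the mutant against 6.73, 7.13 and 6.61 in WS (1.2 ± 0.19, SE; limma, adjusted p = 0.0014). SWEET14 had 9.72, 10.43 and 10.22 in the mutant against 7.81, 8.71 and 8.23 in WS (1.87, adjusted p = 0.014). SWEET11, known from phloem loading in leaves, had 11.10, 10.96 and 11.43 in the mutant against 12.24, 12.09 and 12.23 in WS (-1.03, adjusted p = 0.036). The groups did not overlap in any of these, and SWEET3 also fell, by 1.60 at a low signal. Leaving out 1 array ended the call of SWEET14 (adjusted p up to 0.067 without WS replicate 1) and that of SWEET11 (up to 0.13 without triple mutant replicate 2).

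Of 7 genes of metal transport, 5 transporters and the bHLH regulators PYE and BHLH101, 2 transporters fell and none of the 7 rose. The share called was 28.6%, against 6.30% of all genes. ZIP9, of a family that takes up zinc and iron, had 6.72, 8.09 and 7.23 in the mutant and 8.61, 8.47 and 9.22 in WS, a difference of -1.43 ± 0.27 (SE; limma, adjusted p = 0.0045). MTPA1, a metal tolerance protein, had 1.98, 4.67 and 2.24 in the mutant and 6.56, 5.88 and 7.24 in WS (-3.60 ± 0.54, SE, adjusted p = 0.00079). In both genes each WS array stood above each mutant array, but neither group reached the 40th percentile of signal for MTPA1, so the size of its difference is uncertain. The other 5, among them the transporters ZIP6 (-0.48) and MTP11 (0.18) and the regulator BHLH101 (-0.86), were not called.

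Expansins, proteins that loosen cell walls during growth, shifted upward. Of 19 listed, 6 rose (31.6%, against 3.46% of all genes) and none fell. The differences were positive for 16 of the 19, with a median of 0.52. EXPA8 had 8.61, 8.25 and 8.46 in the mutant and 7.24, 7.15 and 7.22 in WS (1.24 ± 0.21, SE; limma, adjusted p = 0.0022). EXLA2 had 7.76, 7.75 and 7.86 in the mutant and 6.05, 6.83 and 6.89 in WS (1.2 ± 0.26, SE, adjusted p = 0.009). EXPA15 had 12.82, 12.42 and 12.07 in the mutant and 11.28, 11.31 and 11.49 in WS (1.08 ± 0.21, SE, adjusted p = 0.0057). The groups were separate in each, as they were for EXLB1 above, EXPB3 (0.63) and EXPA4 (0.55). EXPA4 lost its call when single arrays were left out (adjusted p up to 0.065 without triple mutant replicate 1), while 5 or 6 expansins were called in each such fit. EXPA7 and EXPA18, markers of root hairs, were not called, with a summed signal of 1207 to 1379 in the mutant and 958 to 1097 in WS. The mean log2 signal over the 19 genes was 7.53 ± 0.08 in the mutant, against 6.90 ± 0.17 in WS, with 7.63 ± 0.18 for Col-0 (SD, n = 3 each).

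Xyloglucan endotransglucosylases, which cut and rejoin a wall polysaccharide, gave 2 decreases and no increase among 10 genes, with a median of 0.02. The 2 are 20% of the list, against 2.85% of all genes called lower. XTH21 had 7.13, 7.71 and 7.64 in the mutant and 9.68, 9.08 and 8.95 in WS (-1.74 ± 0.19, SE; limma, adjusted p = 7.3e-05). XTH16 had 8.63, 8.57 and 8.61 in the mutant and 9.71, 9.26 and 9.44 in WS (-0.87, adjusted p = 0.0035). The mutant arrays thus lay below all WS arrays for these 2 members of the family. Of 6 pectin enzymes, PMEPCRF, a pectin methylesterase, rose by 0.88 (adjusted p = 0.0029). It was the one called of the 6 (16.7%, against 6.30% of all genes). Of 50 genes for cellulose synthesis, GH9 cellulases and the TBL family of wall acetylation proteins, 3 rose and 1 fell, which is 8.0% against 6.30% of all genes and so near the background. They were TBL45 (0.87), TBL40 (AT2G31110, 0.71), TBL36 (0.48) and TBL37 (-0.43). The call of TBL40 was kept without any single array, and those of the other 3 were lost in 2 to 4 of the 6 fits (adjusted p up to 0.13 without triple mutant replicate 1 for TBL36). IRX15-L, which acts in xylan synthesis, rose by 1.19 (adjusted p = 0.0067).

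Of 8 genes of lignin and phenylpropanoid metabolism 2 rose (25%, against 3.46% of all genes) and none fell. None of 7 flavonoid genes was called, with 6.30% of all genes called in either direction. The 2 that rose, UGT72E2 and UGT72E3, attach glucose to monolignols and related phenylpropanoids. UGT72E2 had 12.99, 12.95 and 12.94 in the triple mutant and 11.57, 11.76 and 11.66 in WS, a difference of 1.3 ± 0.15 (SE; limma, adjusted p = 8.3e-05). UGT72E3 had 8.98, 9.52 and 9.19 in the mutant and 8.23, 8.34 and 8.20 in WS (0.98 ± 0.17, SE, adjusted p = 0.0023). Of 51 UDP-glycosyltransferases listed 6 rose (11.8%, against 3.46% of all genes) and none fell. The other 4 were UGT71C1 (0.75), UGT72B1 (0.65), UGT73B5 (0.63) and UGT76C2 (0.55), the last a cytokinin N-glucosyltransferase. UGT73B5 alone of the 6 lost its call when single arrays were left out (adjusted p up to 0.072 without WS replicate 3). F6'H1 (AT3G13610), which makes the precursor of the coumarin scopoletin, had 12.17, 12.35 and 12.13 in the mutant and 11.47, 11.58 and 11.66 in WS (0.65, adjusted p = 0.0028). FACT, which joins caffeic acid to fatty alcohols of the root wax, rose by 0.64 (adjusted p = 0.0014). Of 7 class III peroxidases, which couple phenolics in the wall, PRX71 (AT5G64120) rose by 1.09 (adjusted p = 0.00085). It was the one called of the 7 (14.3%, against 6.30% of all genes). HCT (0.33) and CCR2 (0.21), earlier enzymes of the lignin pathway, were not called, nor were CCOAMT (-0.45) and LAC16 (-0.63), the members with a negative difference.

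The glucosinolate pathway from methionine gave 2 decreases (33.3%, against 2.85% of all genes) and no increase among 6 genes. Beside BCAT4, GSTU20, a glutathione transferase placed in the core pathway, had 7.43, 8.27 and 7.95 in the mutant and 8.89, 8.62 and 8.95 in WS (-0.94, limma, adjusted p = 0.023). Its call was lost when single arrays were left out, with an adjusted p of up to 0.11 without triple mutant replicate 1. The side-chain enzymes AOP1 and AOP3 and the transporters GTR1 (AT3G47960) and GTR2 (AT5G62680) were not called, and differed by -0.74 to 0.64. Other glutathione transferases moved both ways: GSTF13 fell by 0.90 (adjusted p = 0.0075), GSTU22 rose by 0.60 and GSTL3 by 0.44. The calls of GSTU22 and GSTL3 were lost without single arrays (adjusted p up to 0.058 without WS replicate 3, and up to 0.16 without WS replicate 2).

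**Figure D2:**
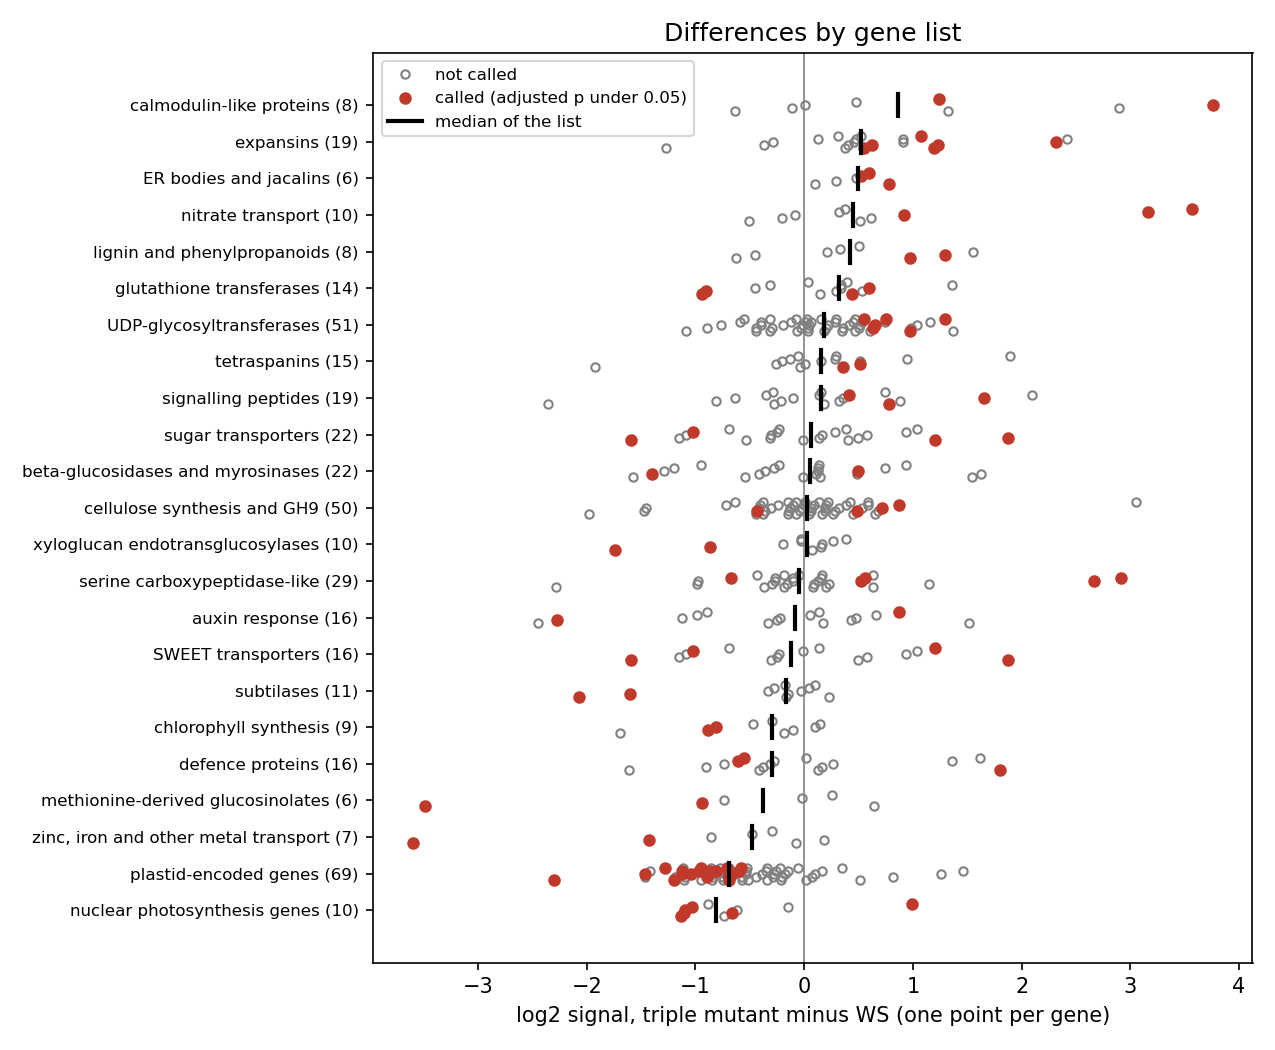
Log2 difference, triple mutant minus WS, of each gene (one point per gene) in the lists with at least 6 members and at least 2 called genes, ordered by the median (black bar), with called genes filled and the number of genes in parentheses. The expansins, at a median of 0.52, have all their called members on the right, and the plastid-encoded genes, at -0.69, have all of theirs on the left.

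ER bodies are compartments of the endoplasmic reticulum that store beta-glucosidases for defence. Of 6 listed genes of this group 3 rose (50%, against 3.46% of all genes). NAI1, the transcription factor that governs ER body formation, had 10.33, 10.05 and 9.84 in the mutant and 9.35, 9.27 and 9.25 in WS (0.78 ± 0.12, SE; limma, adjusted p = 0.001). JAL22, a jacalin-related lectin found with ER body enzymes, had 13.04, 12.97 and 13 in the mutant and 12.42, 12.47 and 12.36 in WS (0.59 ± 0.11, SE, adjusted p = 0.0045). In both genes the WS arrays lay within a narrow band below all mutant arrays. NAI2, an ER body protein, rose by 0.52, with a call that was lost without single arrays (adjusted p up to 0.20 without triple mutant replicate 1). All 6 genes on the list had a positive difference. The summed signal of NAI1, NAI2 and PYK10, the main ER body glucosidase and a marker of root tissue, was 22653 to 27081 in the mutant and 18832 to 24838 in WS, so the sums overlapped. The mean log2 signal of the 6 listed genes was 10.5 ± 0.26 in the mutant, against 10.1 ± 0.01 in WS, with 10.9 ± 0.10 for Col-0 (SD, n = 3 each). Among 22 beta-glucosidases, BGLU44 fell by 1.4 (adjusted p = 0.0019) and BGLU15 rose by 0.49 (adjusted p = 0.025), the second lost without single arrays (up to 0.12 without WS replicate 1). The share called was 9.1%, near the 6.30% of all genes.

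Proteases and carboxypeptidases gave both directions. The subtilase SBT4.12 had 9.88, 9.93 and 9.66 in the triple mutant and 11.84, 11.73 and 12.11 in WS, a difference of -2.07 ± 0.31 (SE; limma, adjusted p = 0.00082). SBT5.2 had 8.87, 8.88 and 8.69 in the mutant and 10.30, 10.41 and 10.55 in WS (-1.61 ± 0.30, SE, adjusted p = 0.0033). They were the 2 of 11 subtilases that passed (18.2%, against 6.30% of all genes). Both separated the groups by over 1 log2 unit. Vacuolar processing enzymes, which mature proteins in the vacuole, gave 2 increases among 4 (50%, against 3.46% of all genes). GAMMA-VPE rose by 0.63 (adjusted p = 0.0085) and BETA-VPE by 0.75 (adjusted p = 0.01), the second lost without triple mutant replicate 3 (0.053). Of 29 serine carboxypeptidase-like genes 4 rose and 1 fell (17.2% called, against 6.30% of all genes). SCPL48 was the one among them that kept its call without any single array, with 11.53, 11.48 and 11.56 in the mutant and 10.87, 10.99 and 11.16 in WS (0.52, adjusted p = 0.0076).

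Stress and defence genes followed no one direction. ChiC, a class V chitinase, had 10.27, 10.28 and 9.64 in the mutant and 8.24, 8.19 and 8.35 in WS (1.80 ± 0.18, SE; limma, adjusted p = 4.2e-05). It was the sole riser among 16 defence proteins, of which 18.75% were called, against 6.30% of all genes. The plant defensins LCR68 (-0.61, adjusted p = 0.01) and PDF2.5 (-0.56, adjusted p = 0.012) fell, the second with an adjusted p of 0.062 without WS replicate 2. In Col-0 ChiC averaged 12.1, above both other groups. STZ, also called ZAT10, a zinc finger repressor induced by salt and other stress, had 10.99, 11.70 and 12.54 in the mutant and 9.60, 10.18 and 10.35 in WS (1.70, adjusted p = 0.028). The call of STZ was lost without single arrays (adjusted p up to 0.13 without triple mutant replicate 3). GRX480, a glutaredoxin of the salicylate response, rose by 1.31 (adjusted p = 0.0079). CML23 rose by 1.24 (adjusted p = 0.0036), the second of 8 calmodulin-like genes called (25%, against 6.30% of all genes). The tetraspanins TET8 (0.51) and TET3 (0.36), membrane proteins, were the 2 of 15 called (13.3%, against 6.30% of all genes). Both calls were lost without single arrays (up to 0.16 without triple mutant replicate 3 for TET8).

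Among the called genes of hormones and peptides given here, CLE26 and GH3.17 kept their calls without any single array. CLE26, a small secreted peptide that acts on the root phloem and root architecture, had 8.69, 8.16 and 8.69 in the mutant and 7.22, 7.0 and 6.37 in WS (1.65 ± 0.27, SE; limma, adjusted p = 0.0013). Of 19 signalling peptides it was one of 3 that rose (15.8%, against 3.46% of all genes). The others were CLE41 (0.78) and RALFL33 (0.41). Their calls were lost without single arrays (up to 0.087 without triple mutant replicate 1, and up to 0.098 without triple mutant replicate 3). GH3.17, which conjugates auxin to glutamate, had 12.16, 12.03 and 12.09 in the mutant and 11.13, 11.03 and 11.51 in WS (0.87 ± 0.16, SE, adjusted p = 0.0032). Of 16 auxin genes 12.5% were called, against 6.30% of all genes. IAA33 was the other called, and fell by 2.27 at a low signal, with an adjusted p of up to 0.095 without triple mutant replicate 2. GID1B, a gibberellin receptor, rose by 0.56 (adjusted p = 0.01), while GID1A (0.29) and GID1C (-0.18) were not called. PSY1R, the receptor named for the growth peptide PSY1, fell by 0.79 (adjusted p = 0.0098). The calls of GID1B and PSY1R were lost without single arrays (up to 0.053 without triple mutant replicate 1, and up to 0.052 without WS replicate 3).

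Genes of cell division, the process for which growth-regulating factors are best known, gave no call. None of 9 cell cycle genes passed, among them the Aurora kinases AUR1 (-0.07), AUR2 (0.13) and AUR3 (-0.27), with a median of -0.07 over the list. None of 5 core histone genes passed, and their differences ran from -0.20 to 0.08. The meristem marker AGL42 had a signal of 492 to 591 in the mutant and 501 to 579.6 in WS, and so did not separate the groups. Few genes of these kinds are named on the array, so the lists are short, and a missed threshold does not show equal levels. With 6.30% of all genes called, no call in lists this short is near the background and is no result about cell division. No gene passed either among 11 jasmonate, 11 abscisic acid, 6 cytokinin, 7 WRKY and 14 autophagy genes, lists to which the same limit applies. The 11 jasmonate genes had a median of -0.74, with 8 differences negative and 3 positive. Their mean log2 signal was 4.61 to 4.63 on the mutant arrays and 4.92 to 5.65 on the WS arrays. Only 3 of the 11 reached the 40th percentile of signal, and this shift was not tested.

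Plastid-encoded genes were lower as a group. Of 69 on the array 19 fell (27.5%, against 2.85% of all genes) and none rose. Of the 69 differences 60 were negative, and the median was -0.69, against -0.01 over all genes. The mean log2 signal over the 69 genes was 7.62, 7.28 and 7.37 on the mutant arrays and 8.19, 7.85 and 7.97 on the WS arrays. Every mutant array thus lay below every WS array, and the Col-0 mean was 7.55 ± 0.03 (SD, n = 3). The count depends on single arrays: it was 10 without WS replicate 3, 11 without triple mutant replicate 2, 11 without triple mutant replicate 3 and 13 without WS replicate 1. With the hybridization control signal as a covariate it was 11, and it was 0 when a change beyond 1.5-fold was tested.

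**Figure D3:**
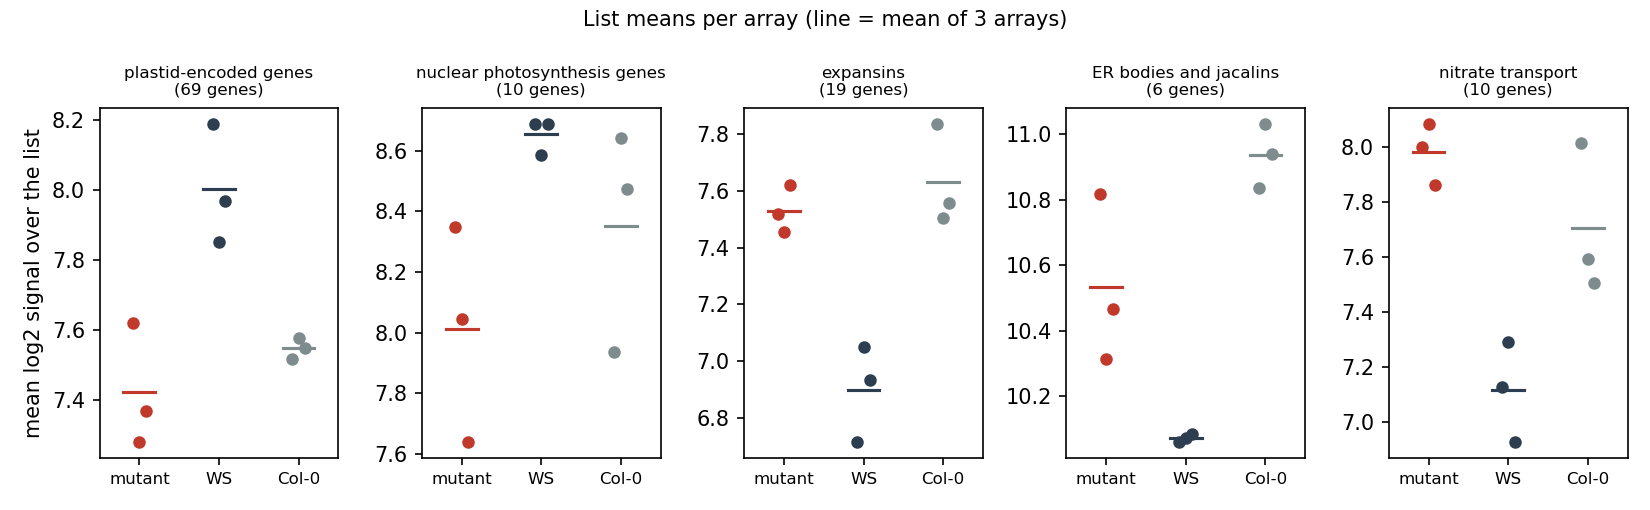
Mean log2 signal over the genes of 5 lists on each array of the triple mutant, WS and Col-0 (one point per array, line at the mean of 3 arrays, axes not starting at 0). The mutant lies below WS for plastid-encoded and nuclear photosynthesis genes and above it for expansins, ER body and nitrate transport genes, and its range overlaps that of Col-0 in 4 of the 5 lists, all but the ER body genes.

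By complex, the calls were most frequent in photosystem II, the complex that splits water. There 9 of 15 genes were lower (60%, against 2.85% of all genes). psbA, for its reaction centre protein D1, had 7.90, 7.14 and 7.08 in the mutant and 8.93, 8.58 and 8.46 in WS (-1.28 ± 0.27, SE; limma, adjusted p = 0.0077). psbZ had 10.16, 9.75 and 9.95 in the mutant and 10.98, 10.75 and 11.03 in WS (-0.97 ± 0.14, SE, adjusted p = 0.00066). The groups were apart in both. In photosystem I 2 of 5 fell, psaI (-1.20, adjusted p = 0.0037) and psaB (-1.13, adjusted p = 0.0054). The ATP synthase gave 2 of 6, atpH (-1.47) and atpA (-1.04), and the cytochrome b6f complex 1 of 6, petB (-0.95, adjusted p = 0.0077). The calls of atpH and atpA were lost without single arrays (up to 0.085 without WS replicate 3, and up to 0.11 without triple mutant replicate 3). None of the 10 genes of the NADH dehydrogenase-like complex passed, with a median of -0.27. Of these 10 genes 3 reached the 40th percentile of signal, against 11 of 15 in photosystem II, so the complexes also differ in signal. All 15 ribosomal protein genes had a negative difference, from -1.42 to -0.21, and 3 passed: rpl33 (-1.12, adjusted p = 0.0035), rps19 (-0.69, up to 0.065 without triple mutant replicate 3) and rpl32 (-0.66). Of 4 RNA polymerase subunit genes rpoB and rpoC2 passed, and both calls were lost without single arrays (up to 0.12 without triple mutant replicate 2, and up to 0.15 without WS replicate 3). Transcripts of the mitochondrial genome were read from 16 probe sets, of which none passed, and their median difference was 0.00 after rounding.

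**Figure D4:**
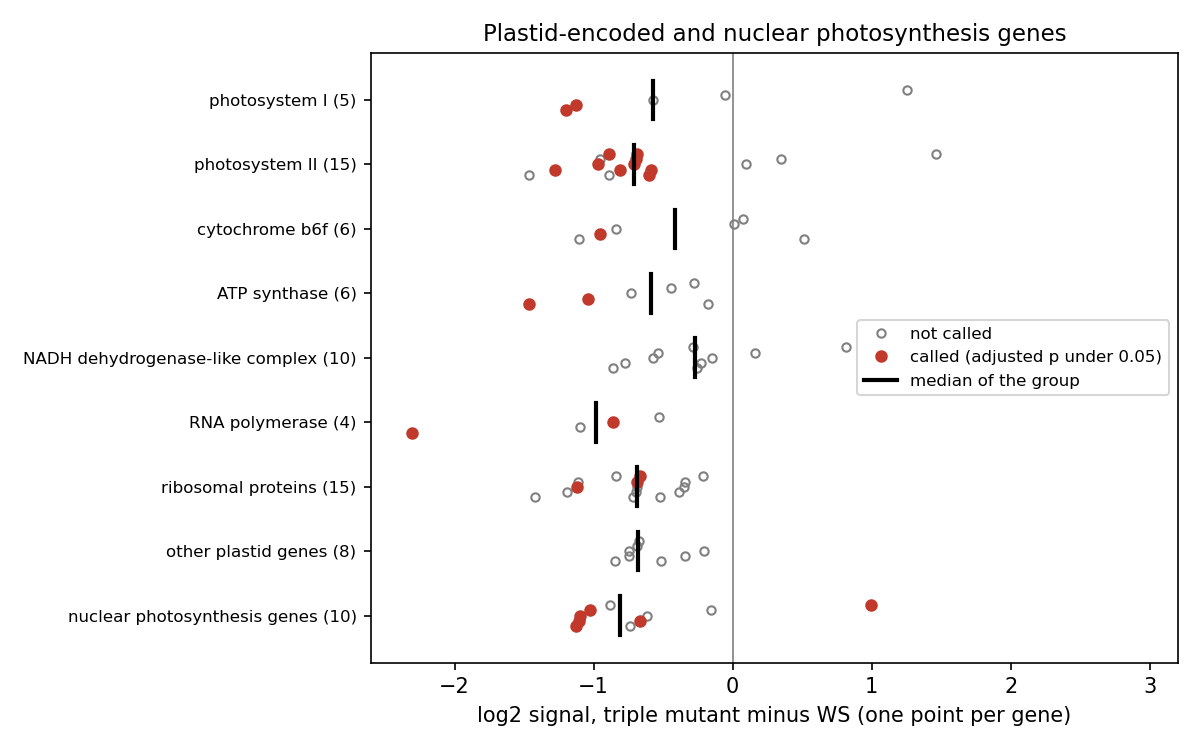
Log2 difference, triple mutant minus WS, of 69 plastid-encoded genes by complex and of 10 nuclear photosynthesis genes (one point per gene, called genes filled, black bar at the median, number of genes in parentheses). All group medians lie left of 0, from -0.27 for the NADH dehydrogenase-like complex to -0.98 for the RNA polymerase, and LHCB4.3 is the one called gene on the right.

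Nuclear genes for photosynthesis moved the same way, with 5 of 10 lower and 1 higher and a median of -0.81. In either direction 60% were called, against 6.30% of all genes. PSBY, of photosystem II, had 8.53, 8.61 and 8.25 in the mutant and 9.26, 8.99 and 9.13 in WS (-0.67 ± 0.13, SE; limma, adjusted p = 0.0058). The other 4 were PRK of the Calvin cycle (-1.13), PSAE-1 of photosystem I (-1.11), PSBW of photosystem II (-1.10) and ATPC1 of the ATP synthase (-1.03). All 4 lost their calls without triple mutant replicate 3, with adjusted p of 0.15, 0.11, 0.12 and 0.13, and the count of lower genes in fits without 1 array ran from 1 to 7, with 1 without WS replicate 3 and 1 without triple mutant replicate 3. It was 1 with the hybridization control signal as a covariate and 0 when a change beyond 1.5-fold was tested. LHCB4.3, an antenna protein, had 8.23, 8.03 and 8.24 in the mutant and 7.16, 7.36 and 7.0 in WS, so that it rose (0.99, adjusted p = 0.0062). Among 9 genes of chlorophyll synthesis PORB (-0.89, adjusted p = 0.014) and CHLM (-0.81, adjusted p = 0.042) fell (22.2%, against 2.85% of all genes) and none rose. Both calls were lost without single arrays (up to 0.067 without WS replicate 3, and up to 0.16 without WS replicate 1). HPR, the hydroxypyruvate reductase of photorespiration, fell by 1.37 (adjusted p = 0.013), with a call lost without single arrays (up to 0.070 without WS replicate 3).

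Several of these nuclear genes are also markers of green tissue. LHCB4.3, which rose, is not on the marker list. Of 46 leaf or shoot markers listed, 8 nuclear genes were matched on the array. Of these 4 were lower (PRK, PSAE-1, PSBW and PSBY), against 2.85% of all genes, and none higher. The summed signal of the 8 was 2171 to 3595 in the mutant and 4013 to 4616 in WS. The plastid-encoded rbcL, also a listed marker, was not called (-0.34) and is not in this sum. The part of these markers in the plastid and photosynthesis results was not tested. None of the 8 nuclear markers was at 0 in either group. The 25S ribosomal RNA signal and the hybridization controls given above were lower on the same mutant arrays, and their part was not tested either. Markers of endodermis, suberin, xylem, phloem and root cap were not named on the array, so these cell types were not analysed here.

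To place the mixed background of the mutant, 130 single-gene probe sets were taken at which WS and Col-0 differed by at least 3 log2 units without overlap and the brighter one reached the 40th percentile of signal. The mutant mean lay on the WS side, at most 0.25 of the way from WS to Col-0, at 98 of the 130, which is 75.4% (67.1 to 82.5%, exact 95% interval over probe sets, which covers counting error only). It lay between at 27 and on the Col-0 side, at least 0.75 of the way, at 5. The median position was 0.11 on a scale with WS at 0 and Col-0 at 1. Col-0 was the higher of the 2 ecotypes at 114 of the 130, and its arrays form another array set, so ecotype and array set cannot be told apart in how these probe sets were chosen.

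On the Col-0 side stood NRT2.5, at 10.7 ± 0.23 in the mutant, against 7.13 ± 0.74 in WS, with 10.5 ± 1.1 for Col-0 (SD, n = 3 each), together with AT1G19210, AT3G13950, AT3G28510 and AT3G28580. The first 2 lie on chromosome 1 and the other 3 on chromosome 3. CML37 lay between, at 0.70 of the way. At the widest ecotype difference, AT1G26390, the mutant averaged 4.0, WS 1.59 and Col-0 12.6. WS-side probe sets numbered 25, 11, 21, 13 and 27 on chromosomes 1 to 5, so they were spread over the genome. NRT2.5 and AT3G28510, which are among the genes with the largest increases, are thus at a Col-0 level in a mutant that stays on the WS side at most probe sets.

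**Figure D5:**
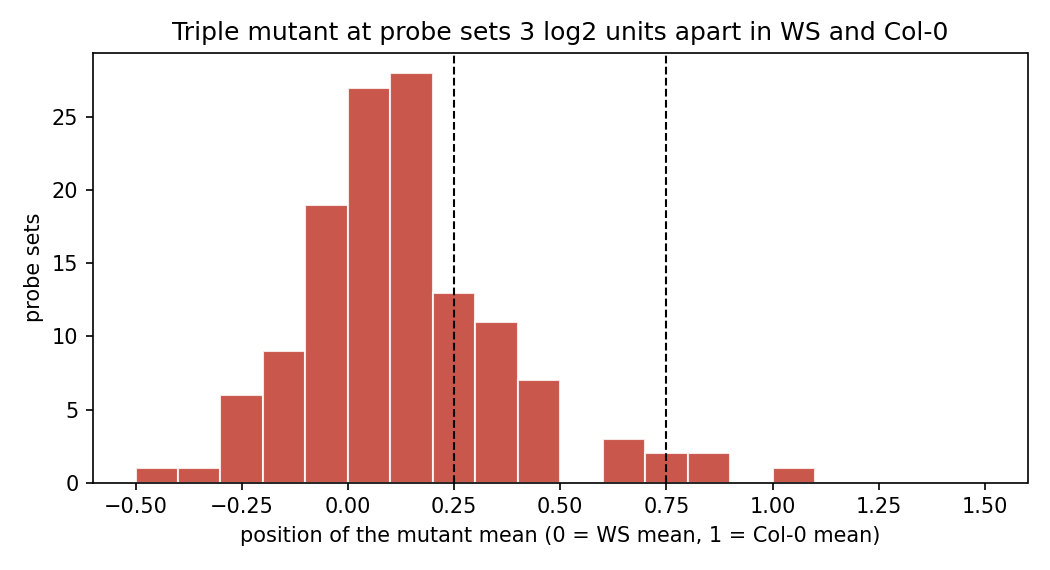
Number of probe sets (y axis) by the position of the triple mutant mean between the WS mean (0) and the Col-0 mean (1) on the log2 scale, for 130 probe sets at which WS and Col-0 differ by at least 3. Dashed lines at 0.25 and 0.75 bound the WS side (98), the middle (27) and the Col-0 side (5).

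Called genes made up similar shares of each chromosome, from 5.94% of the genes of chromosome 4 to 6.54% of those of chromosome 1. Near GRF1 and GRF3, the 20 nearest genes of the array on each side were counted. Of these, 2 of 40 were called around GRF1 and 1 of 40 around GRF3. Against 6.30% of all genes, the count was below that share around both, which was not tested. Those near GRF1 included NAI1, which is named above. The surroundings of GRF2 were not counted.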

How the data were processed

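Intensity values on a linear scale were deposited by the authors, computed with MAS5 per the submitters' processing notes; the version is not given in the sources used here. They were taken to log2 with no offset or further normalization. The 64 control probe sets were left out, and the other 22746 were fitted on all 15 arrays as 5 group means with limma 3.58.1 in R 4.3.3 (eBayes with trend, two-sided, Benjamini-Hochberg). No filter on low signal was used. The annotation table gives 1 gene to 13513 probe sets, several to 503 and none to 8730, and names come from 1-gene probe sets and a TAIR10.1 gene table (13436 matched). A gene is read by its brightest probe set.

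Named genes are the 12 largest per direction that were called, did not overlap between groups and reached the 40th percentile of signal (6.84 on the log2 scale) in a group, plus up to 4 called members per list and direction. Lists were drawn by symbol, so family members without a matching name, or listed under another function, are left out of the totals. The members and lists were chosen with earlier results of these data known, and the lists of calmodulin-like proteins, tetraspanins, vacuolar processing enzymes, chlorophyll synthesis and SWEET transporters, as well as called genes outside every list and further list members beyond 4, were added after values were seen. On simulated data for this comparison over 22746 probe sets, 50 probe sets were changed at each fold level. Calls were made for 48% at a 1.5-fold change, 84% at 2-fold and 96% at 4-fold, and 6.29% of all calls were false. The changed probe sets all lay at or above the 40th percentile of signal, so these shares do not cover dimmer ones. Replicate numbers did not pair the samples: deviations of same-numbered samples correlated at 0.07, -0.09 and -0.03. A promoter motif search was not run. Other filters, scalings, variance models, covariates, a replicate block and leaving out each array were tried as alternatives.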

Additional observations from a re-analysis of the deposited data

How the results depend on the processing

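The 1727 calls (928 higher, 799 lower) came to 1093 (572 and 521) without a trend in eBayes, 1013 (543 and 470) with the hybridization control signal as a covariate and 124 (64 and 60) when a change beyond 1.5-fold was tested. Leaving out 1 array gave 977 to 1242 calls, 526 to 688 of them higher and 451 to 610 lower. Of the 618 genes in the lists 93 were called, 60 with the hybridization covariate, 10 beyond 1.5-fold and 60 to 82 without 1 array. With a filter at the 60th percentile of signal 15 of the 24 named genes were still tested, and all 15 were called, and 21 or 22 of the 24 were called without 1 array. With replicate number as a block there were 1622 calls and all 24 stayed called, while the numbers did not pair the samples (2 of 6 correlated best with their own number). The 40th percentile filter, the offset of 16, quantile normalization, robust fitting, array weights, the 6 arrays alone and the poly-A covariate gave 1652 to 2263 calls. No named gene changed sign in any of these. The WS-side share of 75.4% was 68.3% at a difference of 2 and 81.3% at 4 on the log2 scale, and 76.4% after quantile normalization. Apart from the cases above, the cause of these shifts was not tested. Signal near the bottom of the scale limits the sizes given for MTPA1, rpoB, IAA33, SWEET3 and CML37.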

Other observations

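Sulfur enzymes appear among the called genes outside the lists, chosen after their values were seen. STR18, a sulfurtransferase, had 13.24, 13.48 and 13.25 in the triple mutant and 12.60, 12.38 and 12.21 in WS (0.93 ± 0.15, SE; limma, adjusted p = 0.0011). SUFE2, an activator of cysteine desulfurase, had 10.04, 9.90 and 10.20 in the mutant and 9.34, 9.17 and 8.74 in WS (0.96 ± 0.16, SE, adjusted p = 0.0013). Both stood above WS on every array. NAMT1, a methyltransferase, rose by 1.19 ± 0.15 (SE, adjusted p = 0.00024), and CXE18, a carboxylesterase, by 1.06 ± 0.12 (SE, adjusted p = 0.00013). LPR2, a multicopper oxidase of the root response to low phosphate, rose by 0.63 (adjusted p = 0.0032). Of 5 genes for sulfate uptake and assimilation none was called, and the ATP sulfurylases APS4 (0.45) and APS3 (0.36) were among them.

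P35S:rGRF3 is labelled WS. At the 130 probe sets that separate WS from Col-0, its mean lay on the WS side at 1, between at 22 and on the Col-0 side at 107, and its arrays share Col-0's array set by the hybridization controls. P35S:rGRF1, labelled Col-0, lay on the Col-0 side at 117, between at 10 and on the WS side at 3. Ecotype and array set cannot be told apart at these probe sets.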
